A study of Mus musculus with 8 samples.

Results

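Inflammatory cytokine, chemokine and adhesion genes were examined in the brain cortex of mouse embryos as 32 genes given by name, of which 29 were analysed among 19938 genes. A gene was included where the platform annotation gave a probe set that gene alone. Selp, Spp1 and C3 were not analysed here. The 29 have 5 roles, with 4 adhesion molecules, 6 CC chemokines, 7 CXC chemokines and their receptors, 6 cytokines, and 6 induced effectors and feedback genes. The VEGF group was bitransgenic, carrying a GFAP-tTA transactivator and a TetO-VEGF-A164 responder, with VEGF overexpression described as induced. The control embryos were wild type, described as lacking TetO-VEGF-A164, and the labels leave unsaid whether any of them carried GFAP-tTA. All embryos were taken at embryonic day 16 on a mixed strain background, with 4 arrays per group. The transactivator is driven by the promoter of GFAP, an astroglial gene, so by design transgenic VEGF comes from cells in which that promoter is active. Which cells made VEGF was not measured here. The labels do not say whether an array held a single embryo or a pool, or whether embryos came from separate litters, so a p-value here reflects only how far these arrays differ, which may be technical in part. The files hold values on a log scale, read as log2, with the median of every probe set across the 8 arrays set to 0, so that values are relative and no absolute level is kept.

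In inflamed tissue, cytokines such as TNF and interleukin 1 act through NF-κB, which raises transcription of chemokines, of endothelial adhesion molecules and of its own inhibitor Nfkbia. VEGF-A, best known for driving vessel growth, is also known to raise ICAM-1, VCAM-1 and E-selectin on cultured endothelial cells. Several of the same molecules have a second role in the developing cortex, where Cxcl12 from the meninges and from cortical progenitors guides migrating interneurons and Cajal-Retzius cells through its receptors Cxcr4 and Ackr3. Cortex of this age also holds microglia, which make chemokines such as Ccl3.

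Sequences of the 160 bases before the start site are shown for 6 of the genes, because 5 of them hold a match to the κB motif, the NF-κB consensus, and the sixth is the gene whose groups did not overlap. They are from RefSeq on GRCm38.p6, read 5′ to 3′ on the strand of the gene, and capitals mark κB matches on either strand. The regions are chr5:90891085-90891244 (plus strand) for Cxcl1, chr5:90903739-90903898 (plus) for Cxcl2, chr5:92348890-92349049 (minus) for Cxcl10, chr5:30012954-30013113 (plus) for Il6, chr12:55492648-55492807 (minus) for Nfkbia and chr11:83649379-83649538 (minus) for Ccl3.
Cxcl1: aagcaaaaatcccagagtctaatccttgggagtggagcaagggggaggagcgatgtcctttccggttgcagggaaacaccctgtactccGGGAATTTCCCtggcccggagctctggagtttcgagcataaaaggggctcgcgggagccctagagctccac
Cxcl2: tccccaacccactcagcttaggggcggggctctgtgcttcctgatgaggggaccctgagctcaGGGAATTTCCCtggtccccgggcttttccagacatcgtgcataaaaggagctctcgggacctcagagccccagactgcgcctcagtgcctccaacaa
Cxcl10: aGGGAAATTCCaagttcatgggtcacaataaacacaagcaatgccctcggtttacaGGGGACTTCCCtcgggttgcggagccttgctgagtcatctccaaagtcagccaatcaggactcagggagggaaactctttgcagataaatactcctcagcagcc
Il6: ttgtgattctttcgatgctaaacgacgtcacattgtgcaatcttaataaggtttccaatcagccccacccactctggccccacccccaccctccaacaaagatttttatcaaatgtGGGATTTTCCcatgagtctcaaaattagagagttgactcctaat
Nfkbia: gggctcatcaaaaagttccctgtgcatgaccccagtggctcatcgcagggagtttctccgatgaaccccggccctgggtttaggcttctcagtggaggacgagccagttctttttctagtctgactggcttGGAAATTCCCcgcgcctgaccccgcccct
Ccl3: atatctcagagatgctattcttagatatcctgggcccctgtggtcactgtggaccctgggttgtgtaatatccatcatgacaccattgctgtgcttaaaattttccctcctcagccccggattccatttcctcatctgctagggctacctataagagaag

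Windows were found in the RefSeq table for 23 of the 29 genes, with none listed for Vcam1, Ccl2, Ccl4, Ccl5, Ccl7 and C4b. Over the 250 bases before the start site, 6 of the 23 genes (26.1%) held a κB match, against 7.25% of 32851 windows of that length. The sites of Cxcl1 and Cxcl2 read GGGAATTTCC on the plus strand of each gene, and the site of Nfkbia reads GGGAATTTCC on its opposite strand. Both chemokine sites also match on the opposite strand, shifted by 1 base, and the proximal matches of Cxcl10 overlap in the same way. The sixth gene with a match was Tgfb1. These letters did not occur in the window of Ccl3. A match is a description of sequence, and no binding was measured here.

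Some facts of the whole array set bear on these genes. Vegfa, the gene of the transgene, averaged 0.014 ± 0.064 in VEGF-labelled arrays and -0.039 ± 0.081 in control arrays (SD, n = 4 each), with an adjusted p of 0.748 in limma, so it does not check the labels, and groups are called by label. Values within an array had an interquartile range from 0.0609 in control 4 to 0.142 in VEGF 2, and VEGF 2 had the lowest estimated array weight, 0.367. The mean of 8 cortical marker genes was lowest in VEGF 2 at -0.37 and VEGF 1 at -0.31, while the other 6 arrays lay at -0.072 to 0.099. The mean of 9 markers of hippocampus and thalamus was highest in VEGF 1 at 0.76, VEGF 2 at 0.69 and control 2 at 0.28, while the other 5 arrays lay at -0.29 to 0.059. Centred values cannot show whether a marker is present or absent, so the labelled tissue could not be checked on levels. In these bulk samples fewer cells of a type and less RNA per cell cannot be told apart.

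No inflammatory, chemokine or adhesion gene passed the test between the groups. Of these genes, 0 passed an adjusted p of 0.05 in limma, as did 0 of all genes (0.0%), and the methods' t-test with the same adjustment also gave 0, with 3 of the 29 at its unadjusted p under 0.05, against 10.6% of all genes. At an unadjusted limma p under 0.05 there were 5 of the 29 (17.2%), against 12.5% of all genes. Of the 5, Ccl3 and Cd44 had higher values in VEGF-labelled arrays, where 4.62% of all genes were higher at that p, and Ackr3, Cxcl14 and Serpina3n lower values, where 7.84% were lower. The groups did not overlap in 1 gene, Ccl3, or 3.45% of the 29, against 6.84% of all genes, 2.13% with VEGF-labelled arrays above control and 4.71% below. The first share was above that of all genes and the second below it, and neither difference between shares was tested. The median difference, VEGF minus control, was -0.020 on the log2 scale over the 29 genes and -0.010 over all genes, with 10 genes above 0 and 19 below, or 34.5% above, against 43.3% of all genes. This split of signs moved with the setting. Quantile normalization gave 14 above 0 and 15 below, with a median of -0.0093, and 51.1% of all genes above 0. Array weights gave 16 above and 13 below, with 48.7% of all genes above. Leaving out VEGF 2 alone gave 15 above and 14 below (46.8% of all genes above), as did leaving out control 2 alone (50.1%). Other arrays moved the split the other way. Without VEGF 1 there were 6 above and 23 below (39.9% of all genes above). Without VEGF 4 there were 7 and 22 (42.9%), and without control 3 there were 8 and 21 (41.9%). The cause of these shifts was not tested. In 22 of the 29 genes the difference was smaller than 0.1 in size, as in 78.3% of all genes.

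**Figure D1:**
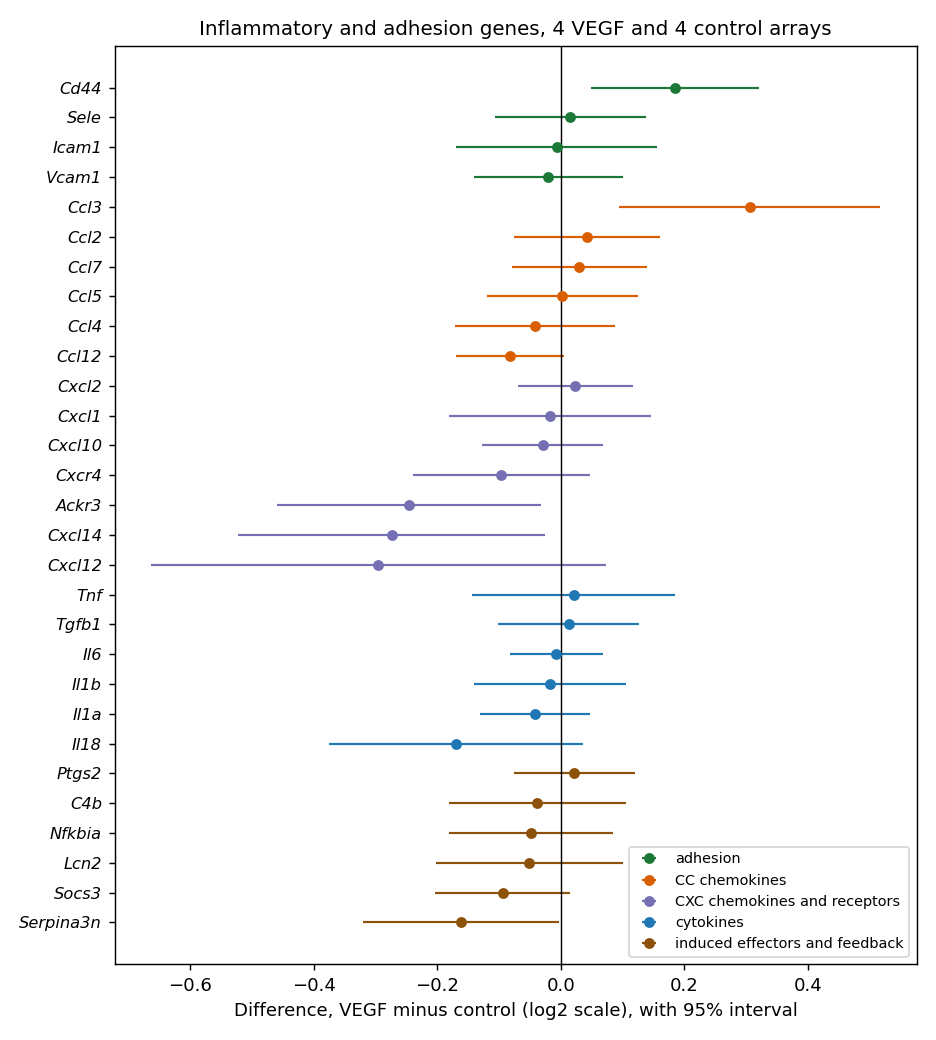
Differences in log2 value, VEGF minus control, of the 29 genes with their 95% intervals from limma, coloured by role and sorted within role. Intervals of Ccl3, Cd44, Ackr3, Cxcl14 and Serpina3n leave out 0 before adjustment, and those of 19 genes lie wholly within 0.2 of 0.

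Among the adhesion molecules, the endothelial receptors for leukocytes lay close to control. Icam1, the ligand of leukocyte β2 integrins, had values of 0.12, -0.094, -0.026 and 0.11 in VEGF-labelled arrays 1 to 4, against 0.0086, 0.22, -0.073 and -0.0086 in control arrays 1 to 4. The groups overlapped widely and the difference was -0.0069 with a 95% interval of -0.17 to 0.16 (adjusted p = 0.982, limma). Vcam1, the endothelial ligand of integrin α4β1, differed by -0.020 with an interval of -0.14 to 0.10. Sele, or E-selectin, which lets leukocytes roll on activated endothelium, differed by 0.015 with an interval of -0.11 to 0.14. As folds, the 3 intervals run from 0.889 to 1.11 for Icam1, from 0.907 to 1.07 for Vcam1 and from 0.929 to 1.10 for Sele. Signal over background is unknown for these probe sets, so these intervals hold for the array values only. The sign of Icam1 turned to 0.0022 with arrays centred on their medians, and that of Vcam1 to 0.0087 with quantile normalization.

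Cd44, the hyaluronan receptor carried by glial progenitors as well as by leukocytes, had higher values in most VEGF-labelled arrays. Its values were -0.015, 0.071, 0.042 and 0.19 in VEGF-labelled arrays 1 to 4, against -0.23, 0.015, -0.12 and -0.12 in control arrays 1 to 4. Of the VEGF-labelled arrays, 3 lay above every control array, and VEGF 1 lay below control 2. The mean was 0.072 ± 0.086 in VEGF-labelled arrays and -0.11 ± 0.10 in control arrays (SD, n = 4 each). The difference was 0.18, or 1.14-fold, and its SE was 0.060. Its adjusted p was 0.289 and its unadjusted p 0.0136 in limma. The unadjusted p stayed under 0.05 in all 17 alternative settings, with differences from 0.15 without VEGF 4 to 0.24.

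The cell types that carry or meet these molecules had small differences as marker lists. Endothelial markers, 13 of 13 analysed, had means from -0.23 to 0.068 in VEGF-labelled arrays and from -0.17 to 0.10 in control arrays. Of these markers, 0 were at an unadjusted p under 0.05 in limma, against 12.5% of all genes, and their median difference was -0.00096. Among them the vascular endothelial cadherin Cdh5 differed by -0.064 and the junctional molecule Pecam1 by 0.015, while the smallest p belonged to the tight junction gene Cldn5 at -0.24 (adjusted p = 0.526) and the receptor kinase Tie1 at -0.11. VEGF 3 and control 3 were the lowest arrays of their groups in the endothelial list. Pericyte and smooth muscle markers had 0 of 10 at that p and a median of -0.020, with Tagln at 0.15 and Abcc9 at -0.12. Leukocyte ligands of the adhesion molecules had 0 of 8 and a median of 0.012, with the integrin subunits Itga4 at 0.11, Itgb1 at 0.065 and Itgb2, the shared chain of the leukocyte integrins, at -0.018. The part of vessel content in the adhesion genes was not tested.

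Ccl3, a macrophage chemokine that draws monocytes, was the gene of the set that separated the groups. Its values were 0.17, 0.021, 0.21 and 0.25 in VEGF-labelled arrays 1 to 4, against -0.021, -0.0805, -0.039 and -0.44 in control arrays 1 to 4. All 4 VEGF-labelled arrays lay above all 4 control arrays, but VEGF 2 and control 1 were close, and control 4 lay far below the others. The mean was 0.16 ± 0.10 in VEGF-labelled arrays and -0.14 ± 0.20 in control arrays (SD, n = 4 each). The difference was 0.31 and its SE 0.094. That is 1.24-fold, with a 95% interval from 1.07-fold to 1.43-fold, an unadjusted p of 0.0096 and an adjusted p of 0.265 in limma. Without control 4 the difference was 0.21, with an unadjusted p of 0.00747 and an adjusted p of 0.571. The unadjusted p stayed under 0.05 in all 17 alternative settings, while the adjusted p ranged from 0.195 to 0.616 over them.

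The other CC chemokines did not share this pattern. Ccl4, which is made with Ccl3 by activated macrophages, had values of 0.13, -0.098, -0.020 and 0.013 in VEGF-labelled arrays 1 to 4, against -0.022, 0.094, 0.14 and -0.013 in control arrays 1 to 4. The groups overlapped, with a difference of -0.042 (adjusted p = 0.846, limma). Ccl2, the main monocyte attractant acting on Ccr2, differed by 0.043, the related Ccl7 by 0.030, and Ccl5, a T cell and monocyte attractant, by 0.0023. Ccl12, the third of the neighbouring monocyte chemoattractant genes, lay on the lower side with a difference of -0.083 (unadjusted p = 0.061, adjusted p = 0.433). Its values were -0.026, -0.020, -0.10 and 0.0049 in VEGF-labelled arrays 1 to 4, against 0.097, 0.068, -0.0049 and 0.025 in control arrays 1 to 4, so that VEGF 4 and control 3 alone broke the separation. Ccl2, Ccl7 and Ccl12 are related in sequence, and cross-hybridisation between their probe sets was not tested. Their receptors, with 7 of 8 chemokine receptor genes analysed, had 0 at an unadjusted p under 0.05 in limma, against 12.5% of all genes. The median of these receptors was 0.025, with the atypical receptor Ackr4 at 0.080 and the microglial fractalkine receptor Cx3cr1 at -0.080.

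Markers of the macrophages that make Ccl3 were evenly split in sign. Of 14 microglial genes, 7 were above 0 and 7 below, and 3 (21.4%, against 12.5% of all genes) were at an unadjusted p under 0.05, all lower in VEGF-labelled arrays, and the median difference was -0.030. The surface receptors Siglech at -0.19 and P2ry12 at -0.28, both typical of resting microglia, had the smallest p (adjusted p = 0.243 at the lowest), while the microglial genes Aif1 at 0.12 and Csf1r at -0.11 had overlapping groups. The mean of the microglial list ran from -0.069 to 0.072 in VEGF-labelled arrays and from -0.074 to 0.094 in control arrays. Of 10 markers of border macrophages, 5 were above 0 and 5 below, from -0.24 to 0.44, with a median of 0.011. Of these, 3 (30.0%, against 12.5% of all genes) were at that p, all higher. They included the lysozyme Lyz2 at 0.44 and Ms4a7 at 0.18, and in each of these the groups did not overlap. The list mean lay between -0.20 and 0.12 in VEGF-labelled arrays and between -0.16 and 0.043 in control arrays. The order of arrays in Ccl3 was matched in part by the microglial list. VEGF 4, highest in Ccl3, was the highest VEGF-labelled array in that list, at 0.072, and control 4, lowest in Ccl3, was the lowest control array, at -0.074. VEGF 3 had -0.069 in the list with 0.21 in Ccl3, control 2 had 0.094 in the list with -0.0805 in Ccl3, and in the border macrophage list control 3 was the lowest control array, at -0.16. The part of macrophage content in Ccl3 was not tested.

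The CXC ligands of neutrophil recruitment and interferon responses stayed near 0. Cxcl1, which acts on Cxcr2, had values of 0.11, -0.16, 0.0060 and 0.041 in VEGF-labelled arrays 1 to 4, against -0.081, 0.18, -0.0060 and -0.038 in control arrays 1 to 4. The spread came mainly from VEGF 2 and control 2, and the difference was -0.017 (adjusted p = 0.958, limma). Cxcl2 differed by 0.023, and Cxcl10, induced by interferon and read by Cxcr3, by -0.030. The sign of Cxcl1 turned with quantile normalization, to 0.012. Over the 6 genes with a κB match shown or named above, Cxcl1, Cxcl2, Cxcl10, Il6, Nfkbia and Tgfb1, differences lay between -0.049 and 0.023. Their lowest unadjusted p was 0.427 in limma, where 12.5% of all genes were under 0.05. The 95% intervals spanned -0.18 to 0.15 in all. Vcam1, Ccl2, Ccl4, Ccl5, Ccl7 and C4b had no window and could not enter this group.

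Cxcl12, Cxcl14 and Ackr3 had the 3 lowest differences of the 29 genes. Cxcl12 had values of -0.29, -0.098, -0.77 and 0.15 in VEGF-labelled arrays 1 to 4, against 0.084, 0.055, -0.055 and 0.088 in control arrays 1 to 4. VEGF 3 lay far below all other arrays and VEGF 4 above every control array. The mean was -0.25 ± 0.39 in VEGF-labelled arrays and 0.043 ± 0.067 in control arrays (SD, n = 4 each). The difference was -0.30 and its SE 0.16 (unadjusted p = 0.103, adjusted p = 0.513, limma). Without VEGF 3 it was -0.12, and without VEGF 4 it was -0.43 (adjusted p = 0.220). Its residual SD exceeded that of 98.5% of all genes.

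The receptors of Cxcl12 had smaller differences and less spread than Cxcl12. Residual SDs were 0.16 for Ackr3 and 0.099 for Cxcr4, against 0.28 for Cxcl12. Ackr3, the atypical receptor that takes up and clears Cxcl12, had values of -0.26, 0.12, -0.36 and -0.21 in VEGF-labelled arrays 1 to 4, against 0.15, -0.036, 0.036 and 0.13 in control arrays 1 to 4. VEGF 1, VEGF 3 and VEGF 4 lay below every control array and VEGF 2 lay among them. The difference was -0.25 with an SE of 0.094 (0.843-fold), with an unadjusted p of 0.0282 and an adjusted p of 0.345 in limma. Cxcr4, the signalling receptor, had values of -0.11, 0.016, -0.11 and -0.016 in VEGF-labelled arrays 1 to 4, against 0.13, 0.023, -0.13 and 0.14 in control arrays 1 to 4. Control 3 was its lowest array, so the range of the VEGF-labelled arrays lay within that of the control arrays, and the difference was -0.096 (adjusted p = 0.6). Without control 3 it was -0.15 (unadjusted p = 0.017, adjusted p = 0.272, limma). The remaining arrays then did not overlap in Cxcr4, as in 13.7% of all genes in that setting. Without control 4 the Cxcr4 difference was -0.063. Its unadjusted p was under 0.05 in 1 of 17 alternative settings.

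Cxcl14, a chemokine of neurons and epithelia, had values of -0.12, -0.14, -0.22 and 0.10 in VEGF-labelled arrays 1 to 4, against 0.32, 0.12, -0.10 and 0.39 in control arrays 1 to 4. VEGF 1 to VEGF 3 lay below every control array and VEGF 4 lay near control 2. The difference was -0.27 with an SE of 0.11 (0.827-fold), with an unadjusted p of 0.0339 and an adjusted p of 0.364 in limma. The unadjusted p was under 0.05 in 9 of 17 alternative settings for Cxcl14, in 11 of 17 for Ackr3 and in 2 of 17 for Cxcl12.

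**Figure D2:**
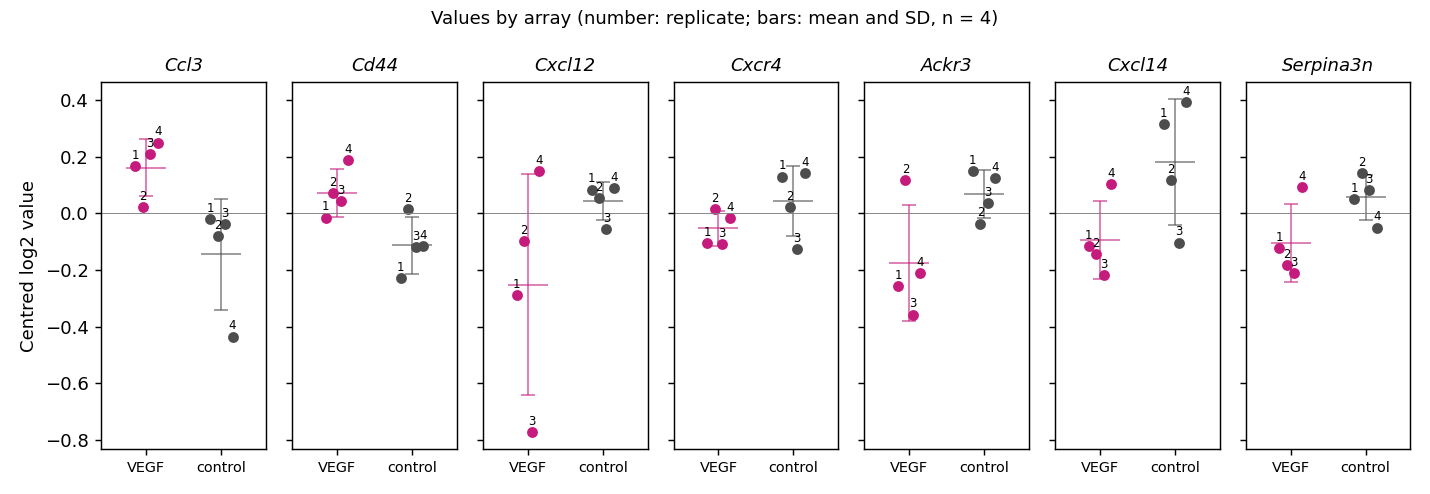
Centred log2 values of 7 genes in the 4 VEGF-labelled and 4 control arrays, with replicate numbers beside the points and bars for mean and SD. Only Ccl3 shows no overlap, and VEGF 3 at -0.77 sets much of the spread of Cxcl12.

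Marker RNA of the cells that carry or make these CXC genes also differed between arrays. All 13 analysed interneuron markers had lower values in VEGF-labelled arrays. At an unadjusted p under 0.05 in limma were 10 of them (76.9%, against 12.5% of all genes). Their median difference was -0.48, with Lhx6 at -1.23 and Dlx2 at -0.62. The mean of the list was -0.20, -0.12, -0.73 and -0.23 in VEGF-labelled arrays 1 to 4, against 0.41, 0.16, -0.00097 and 0.30 in control arrays 1 to 4. VEGF 3 was thus the lowest array in the interneuron list as in Cxcl12, Ackr3 and Cxcl14. VEGF 3 was also the lowest array in 22.2% of all genes, and in 7 of the cytokine, chemokine and adhesion genes analysed. Whether the match with the interneuron list is particular to these CXC genes was not tested. Control 3 was the lowest control array in the interneuron list as in Cxcl12, Cxcl14 and Cxcr4. Meningeal and fibroblast markers had a mean of -0.44 in VEGF 3 and -0.21 in control 3, with the remaining VEGF-labelled arrays between 0.018 and 0.065 and the remaining control arrays between -0.028 and 0.14. Of 11 such markers 1 was at an unadjusted p under 0.05 (9.09%), the transporter Slc6a13 at -0.49, and the next was the collagen Col1a1 at 0.15. Cajal-Retzius markers had a mean of 0.31, 0.19, -0.029 and -0.026 in VEGF-labelled arrays 1 to 4, against -0.20, 0.11, 0.043 and -0.19 in control arrays 1 to 4, with 5 of 8 genes above 0, 3 below and a median difference of 0.21. Of the 8, 2 were at an unadjusted p under 0.05, Nhlh2 at 0.26 and Calb2 at 0.36, and the lowest difference was -0.18. The parts of interneuron and meningeal content in Cxcl12, Ackr3, Cxcr4 and Cxcl14 were not tested.

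Among the cytokines, the initiators of inflammation did not separate the groups. Tnf had values of 0.095, -0.13, 0.023 and 0.17 in VEGF-labelled arrays 1 to 4, against -0.026, 0.18, -0.055 and -0.023 in control arrays 1 to 4. The highest values of the groups, in VEGF 4 and control 2, were nearly equal, and the difference was 0.021 (adjusted p = 0.947, limma). Il6 had the narrowest spread of the set, with values from -0.048 to 0.049 in VEGF-labelled arrays and from -0.0041 to 0.037 in control arrays, and a difference of -0.0073 with an interval of -0.083 to 0.068. The interleukin 1 genes differed by -0.042 for Il1a and -0.018 for Il1b, and the immunoregulatory Tgfb1 by 0.012. Il18, a cytokine matured by the inflammasome, had values of -0.024, 0.031, -0.40 and -0.078 in VEGF-labelled arrays 1 to 4, against 0.12, 0.024, 0.12 and -0.060 in control arrays 1 to 4. Its difference of -0.17 (unadjusted p = 0.0951, adjusted p = 0.499) was -0.075 without VEGF 3. Their receptors, 12 of 13 analysed, had 1 gene at an unadjusted p under 0.05 in limma (8.33%, against 12.5% of all genes). It was the interleukin 6 receptor Il6ra at -0.14 (adjusted p = 0.310). The median of these receptors was -0.010, with the interleukin 18 binding protein Il18bp at 0.12. Il1rn, the natural blocker of interleukin 1, differed by -0.0031, and turned to 0.0060 with arrays centred on their medians.

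Of the 6 genes for effectors that inflammation induces and for feedback inhibitors, 1 was at an unadjusted p under 0.05 in limma. This was 16.7%, against 12.5% of all genes, and differences over the 6 genes ran from -0.16 to 0.022. Serpina3n, a protease inhibitor of reactive astrocytes, had values of -0.12, -0.18, -0.21 and 0.092 in VEGF-labelled arrays 1 to 4, against 0.051, 0.14, 0.083 and -0.051 in control arrays 1 to 4. VEGF 1 to VEGF 3 lay below every control array and VEGF 4 above all but control 2. The difference was -0.16 with an SE of 0.070 (0.894-fold), with an unadjusted p of 0.0469 and an adjusted p of 0.396 in limma. Without VEGF 4 it was -0.23 (adjusted p = 0.127, limma), and with array weights it was -0.070 (adjusted p = 0.747). Serpina3n was at an unadjusted p under 0.05 in 4 of 17 alternative settings, and it belongs to a cluster of similar serpin genes.

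Socs3, the feedback inhibitor of cytokine signalling through Stat3, differed by -0.094 (unadjusted p = 0.0818), and its 2 probe sets gave -0.085 and -0.10. Nfkbia, which holds NF-κB in the cytoplasm and is among its most direct targets, differed by -0.049. Its values were -0.0086, 0.14, -0.11 and -0.067 in VEGF-labelled arrays 1 to 4, against 0.022, 0.13, -0.0064 and 0.0064 in control arrays 1 to 4. Apart from VEGF 2, every VEGF-labelled array lay below every control array, by small amounts. Lcn2, a siderophore-binding protein of reactive astrocytes, differed by -0.051, the complement component C4b by -0.038 and the prostaglandin synthase Ptgs2 by 0.022. C4b has a near copy in C4a, so its value is uncertain to the extent that probes read both.

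The wider pathways gave no call either. Of 16 analysed genes of the NF-κB pathway, 2 were at an unadjusted p under 0.05 (12.5%, the same share as of all genes), both lower in VEGF-labelled arrays and both inhibitors. Nfkbie, an inhibitor related to Nfkbia, differed by -0.16 and the ubiquitin-editing enzyme Tnfaip3 by -0.081 (adjusted p = 0.334 at the lowest in the list). All 4 VEGF-labelled arrays lay below all 4 control arrays in Tnfaip3 but not in Nfkbie, where VEGF 4 lay above control 3. In the list 2 genes had groups without overlap, both lower in VEGF-labelled arrays (12.5%, against 6.84% of all genes). Rela, the transactivating subunit, differed by -0.0064, and turned to 0.0027 with arrays centred on their medians. Of 13 genes of JAK-STAT signalling and the acute phase, 1 was at that p (7.69%), the repressor Bcl6 at -0.56 (adjusted p = 0.254). The next was the feedback inhibitor Cish at -0.13, while Stat3 differed by 0.12 with a spread set by control 1 and control 4.

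Complement and toll-like receptor genes had 2 members each at an unadjusted p under 0.05 in limma. Of 13 complement genes, 2 (15.4%, against 12.5% of all genes) were at that p, both higher, and the median was 0.0083, with C3ar1, the receptor of the C3a fragment, at 0.60 (adjusted p = 0.243) and the C1q chain C1qb at 0.20. C3ar1 had values of 0.11, 0.26, 0.24 and 0.18 in VEGF-labelled arrays 1 to 4, against -0.48, -0.22, -0.11 and -0.80 in control arrays 1 to 4, so that the groups did not overlap and control 4 was again the lowest. Of 10 genes of toll-like receptor signalling, 4 were above 0 and 6 below, with a median of -0.020, and 2 were at that p, the RNA sensor Tlr7 at 0.14 and the lipopeptide sensor Tlr2 at -0.099. Astrocyte and glial markers had 4 of 9 at that p (44.4%, against 12.5% of all genes), 2 in each direction, with Aldh1l1 at -0.68 and the receptor Fgfr3 at 0.35. Gfap, the hallmark of reactive astrocytes, differed by -0.082.

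**Figure D3:**
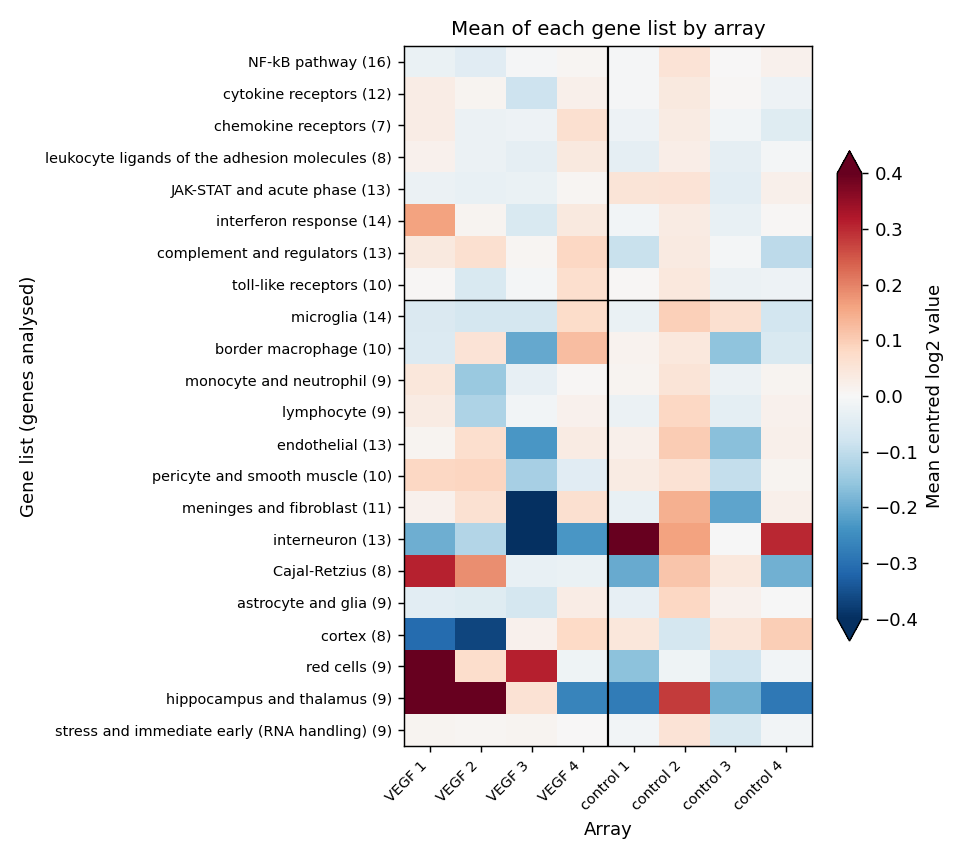
Mean centred log2 value of each pathway list (above the line) and marker list (below it) in the 8 arrays, with the number of genes analysed in brackets and colours that end at -0.4 and 0.4. The interneuron row is lowest in VEGF 3 at -0.73, and the pathway rows stay pale in most arrays.

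The lowest and highest values of the 29 genes lay mostly in a few arrays. VEGF 2 was the lowest of the 8 arrays in 16 of the 29 genes, against 25.1% of all genes. VEGF 4 was the highest array in 8 of the 29, against 7.22% of all genes, and control 2 in 9, against 24.4%. In Icam1, Vcam1, Cxcl1, Tnf, Socs3 and C4b control 2 was highest and VEGF 2 lowest at once, 6 of 29 genes, against 9.99% of all genes. The mean over the 29 genes was 0.011, -0.062, -0.071 and 0.043 in VEGF-labelled arrays 1 to 4, against 0.0085, 0.075, -0.020 and 0.0057 in control arrays 1 to 4. VEGF 2 was also the lowest array in the marker lists of lymphocytes, at -0.12, and of monocytes and neutrophils, at -0.15, and control 2 the highest in these lists, at 0.082 and 0.050.

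Leaving out VEGF 2 and control 2, a choice made after the data were seen, turned the split of signs. VEGF 2 was lowest in 16 of the 29 genes and control 2 highest in 9. Where either holds, leaving that array out raises the difference by construction, so the turn follows in part from the choice. The fit without these arrays gave 19 genes above 0 and 10 below, or 65.5% above, against 52.2% of all genes. Its median difference was 0.039, against 0.0039 over all genes. At an unadjusted p under 0.05 there were again 5 genes, now Ccl3, Cd44, Ccl2, Tnf and Ackr3, against 10.2% of all genes, and none passed after adjustment in limma, where the lowest adjusted p was 0.422. Ccl2 differed by 0.11 and Tnf by 0.13 in that fit. The groups of 3 did not overlap in 7 of the 29 genes, against 16.3% of all genes.

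**Figure D4:**
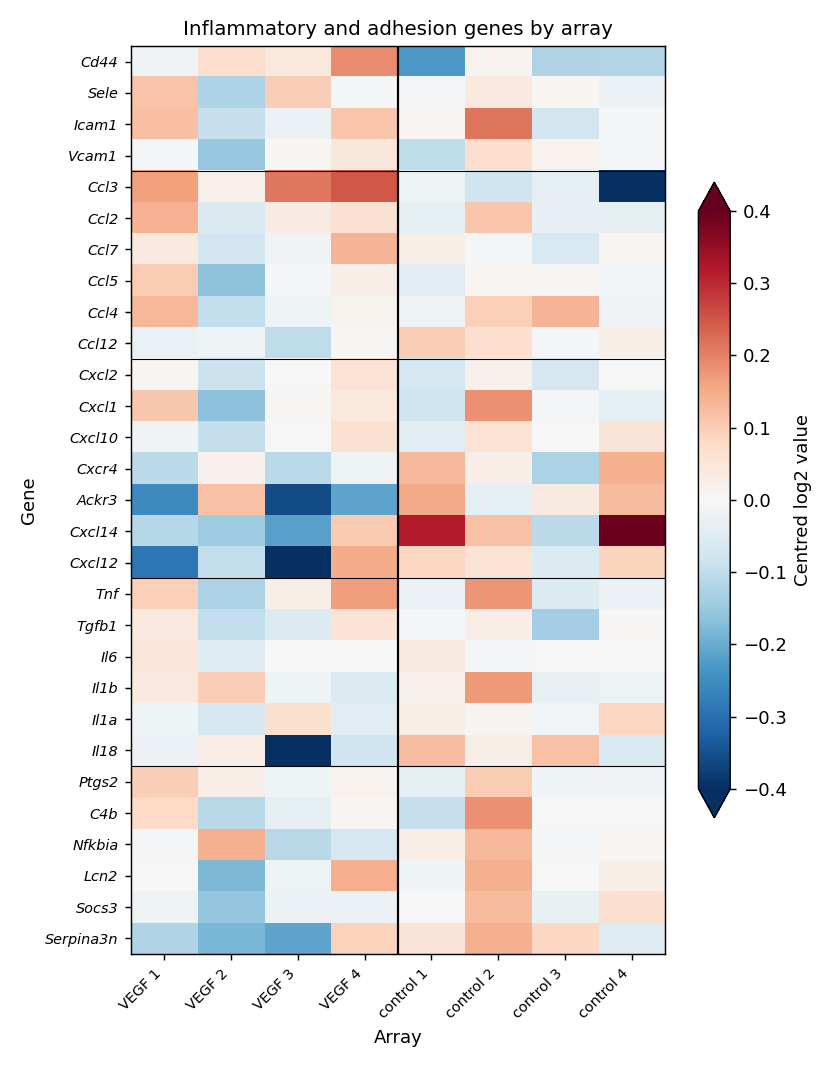
Centred log2 values of the 29 genes (rows, ordered by role) in the 8 arrays (columns), with colours that end at -0.4 and 0.4. VEGF 2 is blue and control 2 red in many rows, and the 4 VEGF-labelled arrays do not form a block.

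**Figure D5:**
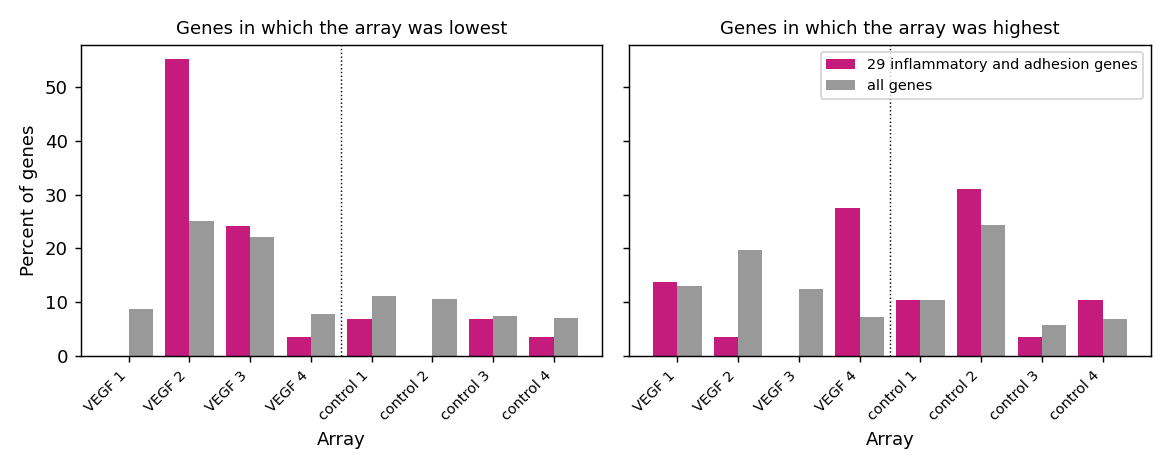
Percent of the 29 genes and of all genes in which each array had the lowest value (left) or the highest value (right). VEGF 2 was lowest in 16 of the 29 genes, against 25.1% of all genes.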

How the data were processed

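RNA of embryonic cortex was extracted with a Qiagen RNeasy kit, and labelled cDNA was made from 120 ng with Ambion and Affymetrix whole-transcript kits, per the labels' protocols. Affymetrix Expression Console and mm8 are named in the submitters' processing notes, and an unpaired t-test in GeneSpring in the series text. How background was corrected and probes were summarised is not stated in the labels. Values deposited by the authors were taken as log2 from their range, for 28853 probe sets, and each probe set has a median within 5e-07 of 0 over the 8 arrays. No source states the base, and folds hold only for base 2. Centred values allow no filter on dim probe sets.

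Of the probe sets, 5443 had no gene symbol in the table used here, 1621 had several and 21789 had 1. Entrez identifiers brought symbols up to date (21698 matched) against RefSeq of GRCm38.p6, whose assembly differs from mm8, so no array coordinates are given. Probe sets of a gene were averaged (999 genes had several). The main test was limma 3.58.1 in R 4.3.3 (lmFit, eBayes, no covariate), adjusted by Benjamini-Hochberg over all 19938 genes, with a threshold of 0.05. The prior had 3.12 degrees of freedom and the residual 6. The fit was tested on simulated data. The 29 genes, the 8 pathway lists and the 14 marker lists were chosen with earlier results of these data known, so lists are described by counts and medians. Named genes were all members, those shown by array being the ones at an unadjusted p under 0.05, without overlap, or of the Cxcl12 set, then 2 of smallest p per list and a set of genes given whatever their values. Values by array are also given for further members that illustrate each role, chosen after their values were seen. Alternatives were 2 scalings, a robust prior, array weights, the replicate number as a block, Xist as a covariate, single probe sets, the methods' t-test and leaving out each array, with VEGF 2 and control 2 left out together added after the data were seen.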

Additional observations from a re-analysis of the deposited data

Results flagged for a closer look

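In 83 named genes, each group of 4 was searched for an array far from the other 3, by the ratio of its gap to the range of the group, and 10 of 166 groups had one. Chance gives about 1 group in 20. Ccl3 was -0.44 in control 4, with the next control array at -0.0805. Control 2 was the highest control array at 0.11 in Ccl2, 0.18 in Tnf, 0.10 in Ptgs2 and 0.074 in Lef1, where the next were -0.032, -0.023, -0.013 and -0.19. Il6 was 0.037 in control 1, with the next at 0.0018. Socs3 was -0.16 in VEGF 2, with the next VEGF-labelled array at -0.024. Rsad2, an antiviral gene induced by interferon, was 0.89 in VEGF 1, with the next at 0.046. Tie1 was -0.22 in control 3, with the next at 0.061, and Abcc9 was -0.19 in VEGF 3, with the next at -0.028.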

How the results depend on the processing

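In all 17 alternatives 0 of the 29 genes passed after adjustment. Over all genes, 1 passed with quantile normalization, Lhx6 at -1.18 (adjusted p = 0.041), and 10 without VEGF 4; otherwise leaving out an array gave 0. At an unadjusted p, members numbered 3 with quantile normalization (11.9% of all genes), 3 with the methods' t-test (10.6%), 6 with probe sets tested one by one (12.9%) and 2 to 6 leaving out single arrays (7.65% to 14.4%). Members without overlap numbered 1 to 5 leaving out arrays (8.32% to 13.7% of all genes) and 7 (16.3%) without VEGF 2 and control 2, where the median was 0.039. Whether the replicate numbers pair the arrays is unknown. Deviations of same-numbered arrays correlated at 0.052, -0.13, 0.45 and 0.30 for replicates 1 to 4. Those of differently numbered arrays correlated at -0.42 to 0.52. With the replicate block 5 members were at an unadjusted p under 0.05 (13.3% of all genes), Cxcl12 in place of Serpina3n, and 0 passed. With arrays centred on their medians, differences of the other sign were Icam1 0.0022, Il6 0.0017, Rela 0.0027 and Il1rn 0.0060. With quantile normalization, differences of the other sign were Icam1 0.026, Vcam1 0.0087, Cxcl1 0.012, Il6 0.0028, Rela 0.0073, Il1rn 0.016 and Itgb2 0.0037. With array weights, differences of the other sign were Icam1 0.056, Vcam1 0.018, Ccl4 0.00055, Cxcl1 0.046, Lcn2 0.016, C4b 0.0051, Rela 0.025, Il1rn 0.033 and Pecam1 -0.017. With Xist as a covariate, differences of the other sign were Icam1 0.031, Cxcl1 0.0058, Il6 0.0013, Il1rn 0.0073 and Itgb2 0.0018. Without VEGF 2 and control 2, differences of the other sign were Icam1 0.094, Vcam1 0.046, Ccl4 0.0084, Cxcl1 0.093, Cxcl10 0.012, Il1b 0.0011, Il6 0.0048, Lcn2 0.039, C4b 0.047, Rela 0.020, Il1rn 0.024 and Itgb2 0.012. Leaving out single arrays, differences ranged Sele -0.016 to 0.064, Ccl5 -0.035 to 0.053, Ptgs2 -0.0010 to 0.053, Tgfb1 -0.024 to 0.040, Rela -0.031 to 0.020, Pecam1 -0.032 to 0.062, Icam1 -0.043 to 0.053, Vcam1 -0.052 to 0.021, Cxcl1 -0.054 to 0.039, Il6 -0.024 to 0.0088, Lcn2 -0.10 to 0.0041, Il1rn -0.033 to 0.027, Itgb2 -0.051 to 0.0087, Cdh5 -0.12 to 0.018, Ccl7 -0.0085 to 0.062, Il1b -0.045 to 0.028, Tnf -0.022 to 0.077 and C4b -0.076 to 0.015. The cause of these turns was not tested. Differences of 14 of the 29 genes, Ccl3, Cd44, Cxcl12, Cxcl14 and Ackr3 among them, kept their sign in all 17 alternatives. Some alternatives could not turn a sign. The robust prior, the replicate block and the methods' t-test leave every difference unchanged. Testing single probe sets does so for genes with 1 probe set. Signal over background is unknown, and 4 arrays per group limit the precision.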

Other observations

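Interferon response genes, 14 of 16 analysed, had 0 at an unadjusted p under 0.05 in limma, against 12.5% of all genes, and a median difference of 0.013. The list mean was 0.16 in VEGF 1 and between -0.061 and 0.038 in the other VEGF-labelled arrays, against -0.029 to 0.032 in control arrays. Rsad2 differed by 0.36, with all 4 VEGF-labelled arrays above all 4 control arrays, and was 0.15 without VEGF 1. Ifitm3, a membrane protein that limits virus entry, was 0.51, 0.23, -0.31 and 0.30 in VEGF-labelled arrays 1 to 4, against -0.073, 0.073, -0.20 and -0.12 in control arrays 1 to 4, a difference of 0.26 (adjusted p in limma from 0.3 to 0.746 over the alternatives).

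Markers of circulating leukocytes held no gene at an unadjusted p under 0.05 in limma, against 12.5% of all genes. Monocyte and neutrophil markers had 0 of 9 at that p and a median of -0.035, with the granule protease Elane at -0.11 and the calcium-binding S100a8 at -0.098. Lymphocyte markers had 0 of 9 and a median of -0.026, with Cd8a at -0.11 and Cd3g at -0.066. Red cell genes had 3 of 9 at that p (33.3%), all higher in VEGF-labelled arrays. Their median was 0.31, with Alas2 at 0.83 and the embryonic globin Hbb-y at 0.44. Their list mean was 0.72, 0.071, 0.31 and -0.018 in VEGF-labelled arrays 1 to 4, against -0.17, -0.018, -0.080 and -0.011 in control arrays 1 to 4. Of 9 genes of immediate early and stress responses, 1 was at that p (11.1%), the phosphatase Dusp1 at -0.19. Atf3 was at 0.092 and the list median was 0.052. Of 8 cortical markers 4 were at that p (50.0%), 1 higher and 3 lower, with Bcl11b at -0.48, Pax6 at 0.23 and a median of -0.18. Of the 9 markers of hippocampus and thalamus 3 were at that p (33.3%), 2 higher and 1 lower. Lef1 was at 0.36 and Zbtb20 at -0.24, with a median of 0.43.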
